A study of Mus musculus with 38 samples.

Results

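Csmd1, Csmd3, Lsamp, Cntnap2, Cntnap5a, Dlg2, Ptprd, Lrp1b and Macrod2 are very long mouse genes, most of them best known for their products in neurons. These 9 genes were taken by symbol from gene tables of 78202 genes, as examples of genes of very great length with many reads each. All 9 were found in the tables and all 9 passed the filter on low values. The measurement was CUT&RUN, in which a nuclease bound to an antibody cuts out the DNA next to the antibody's target, so the values give contact of a gene with a protein and not its expression. None of the values below measures RNA.

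The nuclear lamina is the layer of lamin filaments under the inner nuclear membrane, and the DNA that touches it lies in long, AT-rich and gene-poor lamina domains. The lamin B receptor (LBR) is a membrane protein that binds both lamins and heterochromatin, LMNB1 is a lamin, and LAP2B, a product of Tmpo, is an inner membrane protein that can be mapped in cells without lamins. Very long genes of the nervous system are often found in such domains in cells that do not use them.

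The samples were mouse embryonic stem cells (mESCs), in 36 libraries of 12 groups of 3. Naive mESCs were kept without serum or feeder cells in 2i + LIF, that is N2B27 medium with CHIR-99021, PD0325901 and LIF, and epiblast-like cells (EpiLCs) were made from them in N2B27 with FGF and activin A. Both were collected at 48 hours, with 200000 cells per replicate. LAP2B was mapped at both stages in wild type (WT), in cells without LBR (LBRKO), in cells without the lamins (TKO) and in cells without both (QKO), and LMNB1 and a background control (IGG, a rabbit anti-mouse secondary antibody) were mapped in WT. Per the study's methods, the TKO line and its WT littermate line are separate XY lines, LBRKO was made from WT and QKO from TKO by Cas9 deletions in Lbr. QKO is 1 clone, and 1 of its Lbr deletions is in frame. The methods also give trisomy 8 in TKO, in part with loss of Y, and in WT minor populations, some without Y only and some also trisomic for 6 and 8, so genotype and karyotype cannot be told apart. The coverage tables cannot show whether Lbr or a lamin gene was inactive. The study itself reported loss of LBR by western blot and immunostaining, and checked the lamin knockout by PCR. No source says that replicates were separate cultures, so p-values measure the spread between these libraries.

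Deposited values were read as spike-in-scaled coverage summed over the 1 kb bins that a gene touches. The deposited value itself is called the spike-in scale here, and the relative scale is that value divided by the median gene of its library. Levels are given per kb and are divided by the library's median gene per kb, while changes are log2 differences on the relative scale from limma, whose divisor takes no account of length. The ratio of 2 printed levels therefore need not equal the printed change, and in naive QKO the median change of the 9 genes was -1.89 on the relative scale and -1.66 with the divisor of the levels. A change was called at a Benjamini-Hochberg adjusted p under 0.05 over the 70381 genes tested. Recovered reads summed to 12028659 to 45689196 per library, with 36 to 135 reads at the median gene but 3429 to 85887 at each of the 9 genes. Each library correlated with the mean of the other two of its group at r = 0.971 to 0.989 across genes, which are not independent replicates.

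The genes cover 0.649 Mb (Lsamp) to 2.27 Mb (Ptprd) in GENCODE M39 on GRCm39, and 98.1% to 99.5% of each is intron. Their GC content was 35.2% (Csmd3) to 40.3% (Csmd1), against a median of 45.3% over the tested genes and 39.9% over the 225 other protein-coding genes of at least 500 bins, called the other very long genes below. Csmd1 and Csmd3 (ENSMUSG00000060924 and ENSMUSG00000022311), large transmembrane proteins of CUB and Sushi repeats, lie on the minus strand at chr8:15942537-17585602 and chr15:47444033-48655592. Lsamp (ENSMUSG00000061080), a cell adhesion molecule of the IgLON family anchored in the membrane by a lipid, lies on the plus strand at chr16:41353220-42002042. Cntnap2 (ENSMUSG00000039419) and Cntnap5a (ENSMUSG00000070695), contactin-associated adhesion proteins of which the former gathers potassium channels on axons, lie on the plus strand at chr6:45036291-47281147 and chr1:115612486-116515053. Dlg2 (ENSMUSG00000052572), the postsynaptic scaffold PSD-93, lies on the plus strand at chr7:90125880-92098455, and Ptprd (ENSMUSG00000028399), a receptor tyrosine phosphatase that organises presynaptic sites, on the minus strand at chr4:75859475-78130198. Lrp1b (ENSMUSG00000049252), an endocytic receptor of the LDL receptor family, lies on the minus strand at chr2:40485258-42543636, and Macrod2 (ENSMUSG00000068205), an enzyme that removes ADP-ribose from proteins, on the plus strand at chr2:140237229-142234886.

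The 250 bases before the annotated start of 8 of the genes were read from GRCm39 as a description, and no relation between them and LAP2B was tested. The CG pair, searched as the letters CG (which read the same on both strands), was counted in each, and it occurred 1 to 18 times in the 8 windows. The sequences shown are those of Macrod2, with the most CG pairs of the 8, of Cntnap5a, whose LAP2B changed most in naive LBRKO among the 9, and of Lrp1b, with the fewest. They are written 5′ to 3′ on the strand of the gene, and capitals mark CG. Macrod2 is chr2:140236979-140237228, plus strand, Cntnap5a is chr1:115612236-115612485, plus strand, and Lrp1b is chr2:42543637-42543886, minus strand.
Macrod2: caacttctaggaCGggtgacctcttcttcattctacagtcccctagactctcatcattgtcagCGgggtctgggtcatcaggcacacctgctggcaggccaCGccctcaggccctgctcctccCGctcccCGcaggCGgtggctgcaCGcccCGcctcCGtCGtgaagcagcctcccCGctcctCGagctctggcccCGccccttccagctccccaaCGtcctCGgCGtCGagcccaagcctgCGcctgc
Cntnap5a: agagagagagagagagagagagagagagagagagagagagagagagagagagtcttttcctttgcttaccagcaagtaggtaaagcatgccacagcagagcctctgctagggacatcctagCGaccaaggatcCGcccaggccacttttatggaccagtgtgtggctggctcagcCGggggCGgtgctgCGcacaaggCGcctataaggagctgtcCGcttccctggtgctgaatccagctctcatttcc
Lrp1b: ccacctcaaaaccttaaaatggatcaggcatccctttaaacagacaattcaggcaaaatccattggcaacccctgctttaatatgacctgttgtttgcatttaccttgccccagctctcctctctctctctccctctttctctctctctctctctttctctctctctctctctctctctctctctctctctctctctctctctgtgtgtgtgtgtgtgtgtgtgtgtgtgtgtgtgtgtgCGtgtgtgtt

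The window of Macrod2 holds 18 CG pairs, more than that of 84.4% of 20852 protein-coding genes. Csmd1 has 16 and Dlg2 12, against a median of 6 over coding genes, 92.3% of which have at least 1 and 36.5% at least 10. Csmd3 and Cntnap5a have 7 each, Cntnap2 has 4, Lsamp 3 and Lrp1b 1, and 7.70% of coding genes have fewer than Lrp1b. The windows are a description of the annotated starts, and no value in the tables is resolved to them.

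In naive WT cells all 9 genes had more LAP2B and more LMNB1 per kb than the median gene in every library. LAP2B over Csmd1 was 1.69, 2.00 and 1.68 times the median gene per kb in replicates 1, 2 and 3, and over Csmd3 it was 1.20, 1.56 and 1.19. Macrod2 stood at 1.71, 2.10 and 1.64. Replicate 2 was the highest library for all 9 genes. The group means ran from 1.32 ± 0.21 (SD, n = 3) for Csmd3 through Lrp1b, Cntnap2, Cntnap5a, Ptprd, Lsamp, Dlg2 and Csmd1 to 1.81 ± 0.25 for Macrod2. Neighbours in this order differed by less than the SD of either, though that SD holds the library difference shared by all 9. All 3 libraries of Csmd1 and of Macrod2 lay above all 3 of Csmd3. Differences between genes were not tested. In the ranking of all genes by LAP2B per kb the 9 lay at mean percentiles of 67.3 to 86.2.

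LMNB1 was likewise high over the same genes, measured against its own median gene. LMNB1 over Macrod2 was 2.65, 1.92 and 2.17 in naive WT and over Csmd3 2.12, 1.43 and 1.76. Replicate 1 was the highest LMNB1 library for all 9 genes. Group means were 1.77 (Cntnap2) to 2.25 ± 0.37 (Macrod2), at percentiles of 79.6 to 90.4, and the median over the other very long genes was 1.42. The background control was not flat over these genes. IGG in naive WT spanned 0.605 to 1.22 over the 9 genes and was highest over Csmd1, at 1.22, 1.03 and 1.11. Set side by side as log2 differences per kb, with no test because the tables were normalized separately, naive WT LAP2B stood above naive IGG by 0.68 (Csmd1) to 1.02 (Macrod2) and LMNB1 by 0.76 to 1.36. In naive LBRKO, TKO and QKO the same difference for LAP2B was -0.71 to 0.24, -0.31 to 0.32 and -1.12 to -0.30. On the relative scale the mutant levels given below thus lay near or below WT IGG. The order of QKO and IGG depends on the scale for some genes: as deposited values per kb, QKO LAP2B was above naive WT IGG over Csmd3 (0.100 against 0.0763), Lrp1b (0.0999 against 0.0797) and Ptprd (0.0919 against 0.0856), and below it over the other 6. Deposited values of separately normalized tables are likewise set side by side only.

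**Figure D1:**
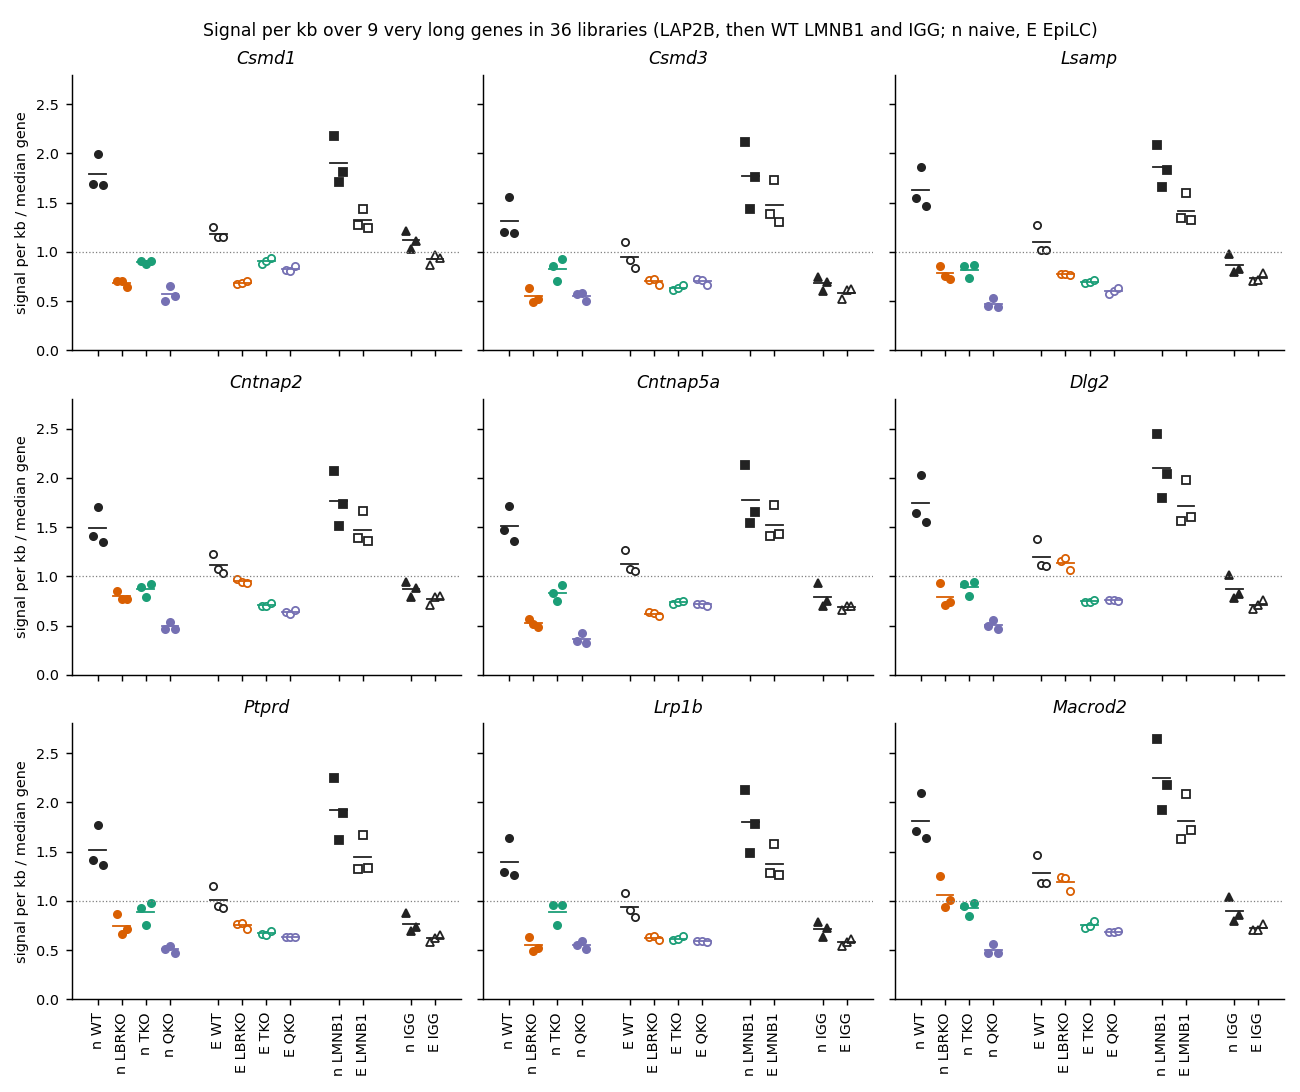
Signal per kb divided by the library's median gene (vertical axis, dotted line at 1) for each of the 9 genes in all 36 libraries, with naive libraries filled, EpiLC libraries open and a bar at each group mean. Naive WT LAP2B lies above 1 for all 9 genes in all 3 libraries, and naive QKO lies between 0.325 and 0.655.

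LAP2B over all 9 genes fell in naive LBRKO, TKO and QKO. The background is high: over all tested genes 27.7%, 27.6% and 42.5% were called lower in LBRKO, TKO and QKO, so that a call by itself is common and the size of the fall is given with it. The 9 genes had median changes of -1.18, -0.97 and -1.89 in these mutants, against 0.04, -0.11 and -0.23 over all genes tested. The 3 comparisons share the WT libraries. In every mutant the 3 libraries of each of the 9 genes lay below all 3 WT libraries. How many of all genes separate in this way was not counted, so this is a description of the values.

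Among the CUB and Sushi repeat genes, the LBRKO libraries of Csmd1 stood at 0.704, 0.705 and 0.643 per kb, the TKO libraries at 0.911, 0.879 and 0.912 and the QKO libraries at 0.499, 0.655 and 0.555. Its changes against WT, in the same order, were -1.43, -1.09 and -1.89 (SE 0.09 each), with adjusted p at most 2.3e-14 (limma). Csmd1 was thus low in LBRKO and QKO and near the median gene in TKO. For Csmd3 the LBRKO libraries were at 0.638, 0.494 and 0.523, the TKO libraries at 0.858, 0.701 and 0.923 and the QKO libraries at 0.577, 0.580 and 0.504. The LBRKO and QKO libraries of Csmd3 overlap, and its change of -1.48 ± 0.10 in QKO (limma adjusted p = 1.3e-18) was the smallest of the 9 on the relative scale, but with each gene divided by its own chromosome Csmd3 stood at -1.75 and Cntnap2, at -1.10, was the smallest.

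Of the adhesion genes, Cntnap5a had the largest fall of the 9 in LBRKO and, on the relative scale, in QKO. With each gene divided by the median gene of its chromosome, Ptprd (-2.07) and Macrod2 (-1.95) fell further in QKO than Cntnap5a (-1.73), so the order in QKO depends on the divisor. From 1.47, 1.72 and 1.35 in WT it went to 0.571, 0.514 and 0.489 without LBR, 0.835, 0.747 and 0.912 without the lamins and 0.341, 0.429 and 0.325 without both. The 3 mutants do not overlap each other. The change of Cntnap5a in QKO was -2.29 ± 0.10 (limma adjusted p = 1.2e-26). Cntnap2, of the same family, stood at 0.857, 0.775 and 0.769 without LBR and at 0.897, 0.794 and 0.922 without the lamins, which overlap, and at 0.469, 0.540 and 0.467 without both. The changes of Cntnap2 in LBRKO, TKO and QKO were -0.94, -0.87 and -1.83. Lsamp, listed in the same way, changed by -1.10, -1.09 and -2.01 (SE 0.10 each).

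The synaptic scaffold gene Dlg2 had LBRKO levels of 0.929, 0.709 and 0.744, TKO levels of 0.918, 0.799 and 0.947 and QKO levels of 0.493, 0.561 and 0.470. Its change was -2.01 ± 0.10 in QKO and -1.18 and -1.07 in LBRKO and TKO. Ptprd changed by -1.07, -0.87 and -1.80 in LBRKO, TKO and QKO. The endocytic receptor gene Lrp1b had changes of -1.38, -0.75 and -1.57, near those of Csmd3. Macrod2 was the gene least changed in LBRKO on the relative scale, and level with Lsamp when divided by chromosome (-0.89 and -0.88). It stood at 1.25, 0.933 and 1.01 there, from 1.71, 2.10 and 1.64 in WT, a change of -0.82 ± 0.10 (limma adjusted p = 5.1e-10), but it fell by 2.09 in QKO.

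All 9 falls in each naive mutant kept their call when any 1 library was left out and under every other setting tried on the relative scale. The size depends on the divisor: with libraries divided by the median of genes of at least 100 bins, the 9 had medians of -0.97, -0.54 and -1.23 in the 3 mutants, while that of all genes moved to 0.22, 0.26 and 0.34, and 21%, 11.6% and 26.4% of all genes were then called lower.

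**Figure D2:**
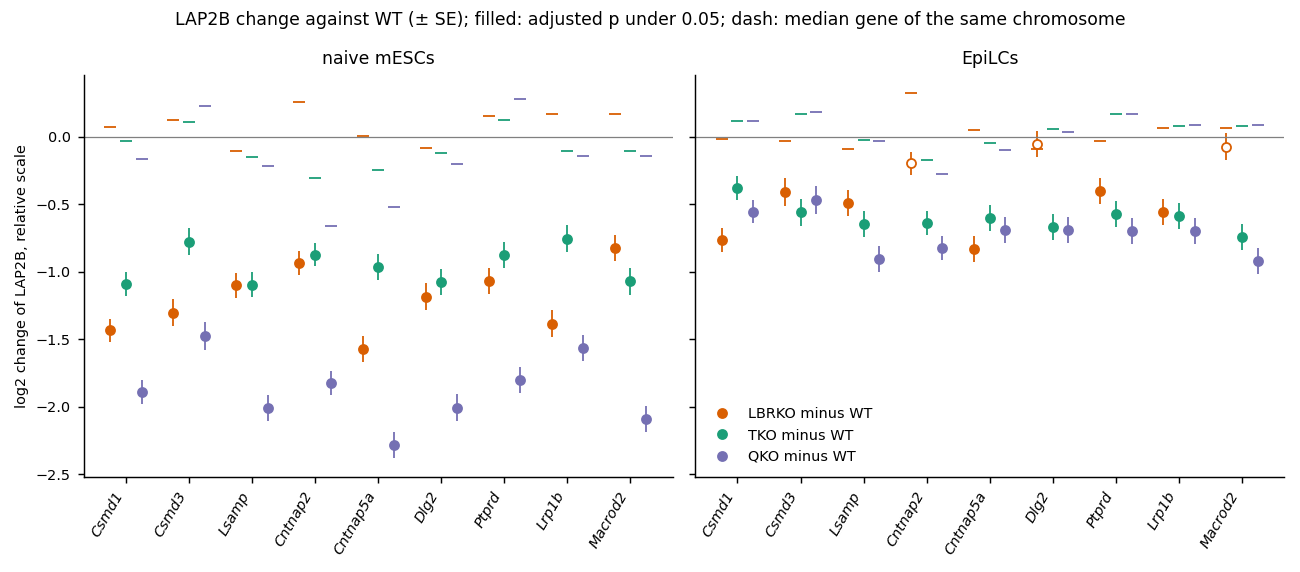
Log2 change of LAP2B against WT on the relative scale (± SE) for each gene in the 3 mutants, naive on the left and EpiLCs on the right; filled points were called and short dashes mark the median gene of the same chromosome. In naive cells every point is filled and lies between -2.29 and -0.75, and in EpiLCs the open points are LBRKO for Cntnap2, Dlg2 and Macrod2.

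The spike-in scale is RPKM, which is already divided by the reads of the library, times the spike-in factor, and is not divided by the median gene. On this scale all 9 genes were also called lower in each naive mutant, against 17.8%, 47.5% and 65.5% of all genes in LBRKO, TKO and QKO, where 28.2%, 2.43% and 10.1% were called higher. The changes ran from -1.39 (Cntnap5a) to -0.64 (Macrod2) in LBRKO, from -1.72 (Csmd1, Lsamp) to -1.38 (Lrp1b) in TKO and from -3.53 (Cntnap5a) to -2.72 (Csmd3) in QKO. The median of all genes on this scale was 0.21, -0.65 and -1.24, so that in TKO and QKO part of each value is shared with most genes. SEs were 0.23 to 0.24 here. Without WT replicate 2, 7 of the 9 were called in LBRKO, and without LBRKO replicate 1 or 2, 8 were, with the shares of all genes not given. With reads in place of RPKM multiplied by the spike-in factor, the median of the 9 in naive LBRKO was -0.56 and 6 were called (9.47% of all genes lower, 49.7% higher), and with no filter on low values 5 were (15.2% and 22.8%).

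QKO adds loss of LBR to the TKO background, and in naive cells all 9 genes had less LAP2B in QKO than in TKO (27.2% of all genes were called lower). The difference was largest for Cntnap5a, at -1.32 ± 0.10, followed by Macrod2 at -1.02 and Cntnap2 at -0.95, and smallest for Csmd3 at -0.70 (limma adjusted p at most 7.8e-08). Divided by chromosome, the ends of this order were Ptprd (-1.09) and Cntnap2 (-0.57). No QKO library overlapped a TKO library for any of the 9, and the share of all genes for which this holds was not counted. The median of the 9 was -0.93, against -0.07 over all genes. On the relative scale per kb, LAP2B in naive TKO already lay near WT IGG (-0.31 to 0.32), and in QKO below it (-1.12 to -0.30). LBRKO stood at -0.71 to 0.24. How far this limits the differences among the naive mutants was not tested.

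Set against each other, the losses of LBR and of the lamins differed between genes in naive cells. Lrp1b, Cntnap5a, Csmd3 and Csmd1 had less LAP2B in LBRKO than in TKO, by -0.63, -0.61, -0.53 and -0.34, and Macrod2 had more, by 0.25 ± 0.10 (adjusted p = 0.042). Over all genes 15.9% were called lower and 21.5% higher. Lsamp (-0.01), Cntnap2 (-0.06), Dlg2 (-0.11) and Ptprd (-0.19) were not called. The value of Macrod2 rests on a few libraries: it was 0.12 (adjusted p = 0.38) without LBRKO replicate 1, 0.19 without TKO replicate 2, 0.19 with libraries divided by the median gene per kb, and 0.03 with libraries divided by genes of at least 100 bins. With the last divisor 8 of the 9 genes were called lower in LBRKO than in TKO, Macrod2 being the exception, against 24.8% of all genes lower and 14.3% higher.

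In EpiLCs the changes of the 9 genes in LBRKO were uneven. The study did not use LAP2B to mark lamina domains in EpiLCs, because in WT its signal also lay outside the domains found with LMNB1. The EpiLC values are therefore given as LAP2B signal and not as a measure of lamina contact. TKO and QKO again had all 9 genes called lower, against 9.97% and 17.8% of all genes (8.68% and 18.3% were called higher), with medians of -0.60 and -0.70. LBRKO had 6 of the 9 called lower, against 10.1% of all genes (13.3% higher), with a median of -0.41. The medians over all genes were 0.04, 0.02 and 0.01 in TKO, QKO and LBRKO.

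Cntnap5a and Csmd1, with the largest EpiLC changes in LBRKO, stood well below WT. Csmd1 was at 0.679, 0.685 and 0.703 in LBRKO and 1.25, 1.15 and 1.15 in WT, a change of -0.76 ± 0.09 (limma adjusted p = 1.1e-09). Cntnap5a was at 0.639, 0.628 and 0.602 in LBRKO and 1.27, 1.07 and 1.05 in WT, a change of -0.83 ± 0.10. For both genes TKO lay between WT and LBRKO, at 0.872, 0.906 and 0.939 for Csmd1 and 0.718, 0.737 and 0.755 for Cntnap5a. Lrp1b (-0.56), Lsamp (-0.49), Csmd3 (-0.41) and Ptprd (-0.40) were called lower in LBRKO too.

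Dlg2, Macrod2 and Cntnap2 were not called in EpiLC LBRKO. Dlg2 stood at 1.16, 1.19 and 1.06 in LBRKO, among WT values of 1.38, 1.12 and 1.10, a difference of -0.05 ± 0.10 (adjusted p = 0.76). Macrod2 stood at 1.25, 1.24 and 1.10, among WT values of 1.47, 1.18 and 1.19, a difference of -0.07 ± 0.10 (adjusted p = 0.66). For both genes the LBRKO and WT libraries overlap, while TKO (0.738, 0.738 and 0.760 for Dlg2) and QKO (0.763, 0.757 and 0.749) lie below all of them. Without WT replicate 1 the differences of Dlg2 and Macrod2 became 0.05 and 0.03, still uncalled. Cntnap2 was at 0.977, 0.947 and 0.937 in LBRKO, below all WT values of 1.23, 1.07 and 1.03, a difference of -0.20 ± 0.09 that missed the threshold (adjusted p = 0.10). It passed the threshold without WT replicate 3 (-0.26, adjusted p = 0.045), with libraries divided by the median gene per kb (-0.22), and when each gene was divided by the median gene of its chromosome, which gave -0.53 (adjusted p = 1.5e-07).

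The median gene of chromosome 6, which carries Cntnap2, stood at 0.26 in naive and 0.33 in EpiLC LBRKO against WT. The study's karyotypes name this chromosome, and copy number was not tested. The 445 genes within 5 Mb of Cntnap2 had lower medians in LBRKO, 0.06 in naive cells and 0.15 in EpiLCs. The chromosome divisor is thus larger than the local shift. Chromosome 8, which carries Csmd1, stood at -0.03 in naive TKO and 0.12 in EpiLC TKO. With each gene divided by its own chromosome, all 9 naive calls in each mutant were kept and the largest move was that of Cntnap2 in naive QKO, from -1.83 to -1.10, where the median gene of chromosome 6 was at -0.66.

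Directly compared in EpiLCs, LBRKO had more LAP2B than TKO over Macrod2 (0.67), Dlg2 (0.62) and Cntnap2 (0.44, and -0.12 when divided by chromosome), and less over Csmd1 (-0.39). Of all genes, 14% were called higher and 10.9% lower. The other 5 of the 9 genes were not called. Between QKO and TKO in EpiLCs none of the 9 was called, where 0.27% of all genes were called lower and 0.933% higher. LAP2B of both mutants lay near WT IGG there on the relative scale, as given further on. Their differences were -0.26 (Lsamp) to 0.09 (Csmd3) with SEs of 0.09 to 0.10, and 3 of the 9 had an unadjusted p under 0.05 (limma), as did 13.1% of all genes. edgeR called none of them either, whereas a limma fit on these 6 libraries alone called Lsamp, Cntnap2, Macrod2, Csmd1 and Ptprd lower, and with them 3.39% of all genes lower and 4.78% higher.

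On the spike-in scale in EpiLCs, QKO had all 9 called lower, at -1.81 (Macrod2) to -1.35 (Csmd3), against 55.7% of all genes. TKO had 8 called lower against 9.36% of all genes, Csmd1 missing at -0.65, and LBRKO had Cntnap5a (-0.80) and Csmd1 (-0.73), against 3.47% (5.55% higher). The last 2 counts rest on single libraries: the 8 became 0 without TKO replicate 3 or without WT replicate 1, 3 without TKO replicate 2 or WT replicate 3, and the 2 became 0 without LBRKO replicate 1, LBRKO replicate 2, WT replicate 1 or WT replicate 3, and 1 without LBRKO replicate 3. Shares of all genes called in those fits are not given, so a general loss of calls cannot be told from one of these genes. With reads in place of RPKM multiplied by the spike-in factor, none of the 9 was called in LBRKO (1.41% of all genes lower, 33% higher) or TKO (2.63% lower), and the median of the 9 in LBRKO changed sign, from -0.37 to 0.056.

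Whether a mutant's effect differed between the stages was tested as an interaction, the EpiLC difference from WT minus the naive one. Loss of LBR had a smaller effect in EpiLCs for all 9 genes (10.2% of all genes were called in this direction and 9.55% in the other), by 0.61 (Lsamp) to 1.13 (Dlg2). The QKO effect was also smaller for all 9 (24.9% of all genes, and 20.9% the other way), by 0.87 (Lrp1b) to 1.60 (Cntnap5a). For the TKO effect 2 of the 9 were called (5.79% of all genes, and 3.81% the other way), Csmd1 at 0.71 ± 0.12 (adjusted p = 0.00015) and Lsamp at 0.45 ± 0.14 (adjusted p = 0.026). The other 7 had values of 0.17 to 0.40. Csmd1 stayed called when any 1 library was left out. Lsamp lost its call without naive WT replicate 2 (0.34), EpiLC WT replicate 2 (0.41) or 3 (0.38), naive TKO replicate 2 (0.38), or EpiLC TKO replicate 2 (0.45) or 3 (0.42), while 5 genes were called without EpiLC WT replicate 1 (6% of all genes) and 4 without naive WT replicate 3 (6.43%). With libraries divided by genes of at least 100 bins, the median interaction of the 9 went from 0.74 to 0.45 for LBRKO, from 1.11 to 0.60 for QKO and from 0.33 to 0.01 for TKO, and 9, 9 and 1 were called. The calls over all genes turned with it, to 4.09% in this direction and 18.8% in the other for LBRKO, 9.42% and 31.8% for QKO and 1.22% and 10.8% for TKO. With no filter on low values, 5 of the 9 were called for LBRKO (7.57% of all genes) and none for TKO (4.14%), Csmd1 included. With libraries divided by the median gene per kb, Lsamp lost its TKO call (0.34).

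WT itself had less LAP2B over all 9 genes in EpiLCs than in naive cells, and this WT difference enters every interaction above. The study's limit on LAP2B as a mark of lamina domains in EpiLCs holds for this change and for the interactions. The changes were -0.62 (Csmd1) to -0.45 (Cntnap2, Cntnap5a), all 9 were called and 17.1% of all genes were called lower and 15.1% higher. Csmd1 went from 1.68 to 2.00 per kb in naive WT to 1.15 to 1.25 in EpiLC WT, and Csmd3 from 1.19 to 1.56 to 0.840 to 1.10. The naive and EpiLC libraries did not overlap for any of the 9, and the share of all genes for which this holds was not counted. With libraries divided by genes of at least 100 bins the median of the 9 was -0.29, and 8 were called, against 5.81% of all genes lower and 25.7% higher.

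LMNB1 over the same genes differed less clearly between the stages. Only Csmd1 was called, at -0.54 ± 0.18 (limma adjusted p = 0.047, with 7.09% of all genes called lower and 6.34% higher), and the other 8 differences were -0.43 to -0.23 with SEs of 0.16 to 0.20. LMNB1 over Csmd1 was 2.18, 1.71 and 1.81 in naive and 1.27, 1.44 and 1.25 in EpiLC WT, without overlap, and over Cntnap5a it was 2.13, 1.54 and 1.65 against 1.41, 1.73 and 1.43, with overlap. The call of Csmd1 was lost without EpiLC replicate 1 (-0.52) or 3 (-0.49) or naive replicate 1 (-0.42) or 3 (-0.57), and without naive replicate 2 a total of 4 genes were called (10.9% of all genes lower).

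IGG, the background control, stood lower in EpiLCs over these genes too. None of the 9 was called (0.418% of all genes were called lower and 0.0725% higher), but their differences were -0.34 (Ptprd) to -0.21 (Cntnap2) and all 9 had an unadjusted p under 0.05 (limma), as did 13.1% of all genes. edgeR called 5 of them lower (0.551% of all genes), and limma called 4 without EpiLC replicate 3 (0.485%) or without naive replicate 2 (0.537%). The part of background in the fall of LAP2B was not tested. Over EpiLC IGG, WT LAP2B stood at 0.36 to 0.81 and LMNB1 at 0.51 to 1.32 per kb on the log2 scale. LAP2B stood at -0.42 to 0.72 in EpiLC LBRKO, -0.11 to 0.13 in TKO and -0.29 to 0.26 in QKO. On the relative scale TKO and QKO thus lay near the IGG of WT, the only genotype with IGG. How far this limits the differences among mutants and the interactions was not tested.

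Some shorter annotated genes lie inside the 9 genes and give the change over parts of them; no difference between parts of a gene was tested. A total of 23 nested genes of at least 10 bins were found in 7 of the 9, and none in Lsamp or Cntnap5a. Their bins are also bins of the host gene, so they are parts of it and not a separate check. In naive QKO all 23 were below 0, from -2.39 to -0.58 with a median of -1.93. In naive LBRKO 22 were below 0, the exception being a gene 2115 kb from the start of Cntnap2, near its 3′ end, at 0.14, where QKO stood at -0.58. Cntnap2 as a whole changed by -0.94 and -1.83.

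In EpiLC LBRKO 9 of the 23 nested genes were called lower and 1 higher, against 10.1% and 13.3% of all genes. The latter is ENSMUSG00000137997, the gene near the 3′ end of Cntnap2, at 0.42 ± 0.11 (limma adjusted p = 0.0034). Flrt3, which encodes a membrane adhesion protein, lies 266 kb from the start of Macrod2 and stood at 0.31 ± 0.13 (limma adjusted p = 0.087), and Macrod2os1 at 863 kb stood at 0.32 ± 0.12 (adjusted p = 0.055), neither of them called. A gene at 1771 kb was called lower, at -0.63 ± 0.13 (limma adjusted p = 0.00018). In Dlg2, Gm45159, 437 kb from the start, stood at 0.26 ± 0.13 and was not called, and a gene 1468 kb from the start was called lower at -0.41 ± 0.14. In EpiLC TKO and QKO all 23 nested genes were below 0.

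**Figure D3:**
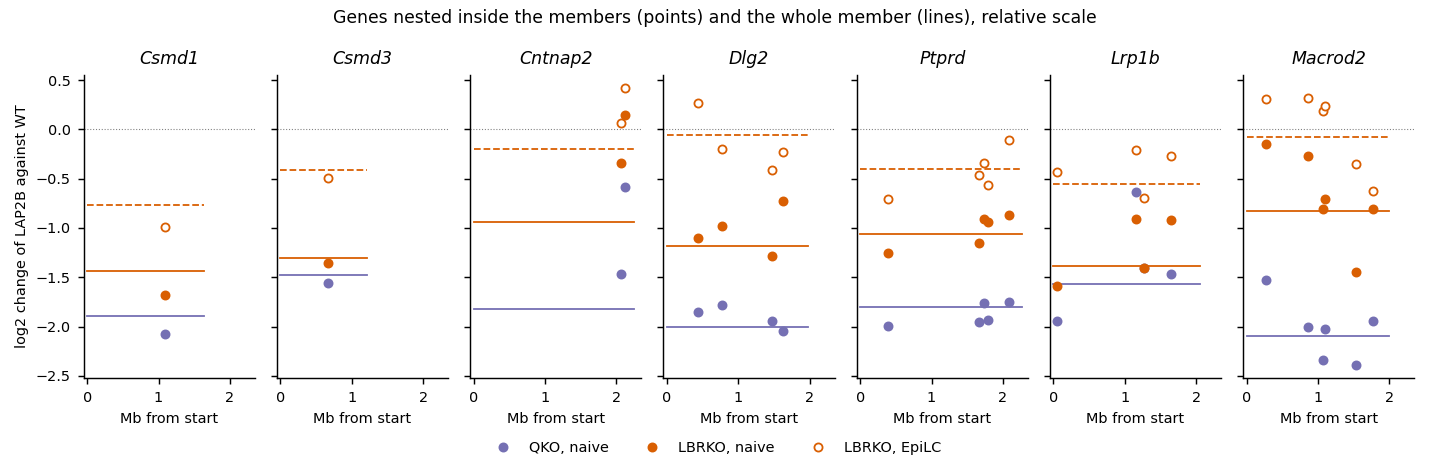
Log2 change of LAP2B against WT on the relative scale for the nested genes (points, by distance in Mb from the start of the host) and for the whole host (lines) in naive QKO, naive LBRKO and EpiLC LBRKO (open points, dashed lines). QKO points lie below 0 in all 7 hosts, and in EpiLC LBRKO the points of Macrod2 run from 0.32 to -0.63.

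The genes around the 9 also had medians below 0 in naive QKO. Within 5 Mb of each, without overlap, 114 to 445 other genes were tested, and their median change was -0.41 (around Csmd1) to -1.44 (around Ptprd). In naive QKO, 67.8% (Csmd3) to 97.3% (Lsamp) of these neighbours stood above the gene they surround. In naive LBRKO the range was 50.9% (Ptprd) to 96.5% (Csmd1), so that Ptprd changed as its neighbourhood did. Of the 18 nearest coding genes, 1 on each side of each of the 9, 15 were called lower and none higher in naive QKO (42.5% and 33.1% of all genes). In naive LBRKO 11 were lower and 2 higher (27.7% and 28.9% of all genes). In naive QKO 3 of them stood below the gene they flank, Gm19965 (-2.34) beside Cntnap5a, Kcnv1 (-2.16) beside Csmd3 and LINC03051 (-2.12) beside Lsamp. Tmem126b, Cul1 and Ppp6c, which lies beside Lrp1b, were the 3 not called in naive QKO. Tmem126b, 0.66 kb upstream of Dlg2, stood at -0.37 in naive QKO and 0.14 in naive LBRKO, against -2.01 and -1.18 for Dlg2. Cul1, 149 kb downstream of Cntnap2, stood at -0.14 and 0.72. Sel1l2, 5.58 kb upstream of Macrod2, stood at -1.82 and -0.52, close to Macrod2 itself in QKO.

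The falls are not particular to these 9 genes. Of the 225 other very long coding genes, 213 (94.7%) were called lower in naive QKO, 208 (92.4%) in naive TKO and 190 (84.4%) in naive LBRKO, with median changes of -1.55, -0.84 and -0.87. In EpiLCs 130 (57.8%), 161 (71.6%) and 180 (80%) were called lower in LBRKO, TKO and QKO. In naive QKO, 4 of the 234 very long genes had a larger fall than Cntnap5a, 26 a larger fall than Macrod2 and 131 a larger fall than Csmd3. In naive LBRKO, 6 had a larger fall than Cntnap5a, 24 than Csmd1 and 132 than Macrod2.

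Over these 234 genes, the change in naive QKO ran against WT LMNB1 per kb (Spearman rho = -0.65) and with GC content (rho = 0.57). These are correlations across genes, which share libraries and base composition, and are given as a description. In EpiLC TKO the same pair was -0.71 and 0.79, and in EpiLC QKO -0.60 and 0.65. In naive TKO it was -0.51 and 0.34. For LBRKO the pair was -0.35 and 0.60 in naive cells and -0.02 and 0.29 in EpiLCs. With length in bins, rho was -0.15 in naive QKO and -0.19 to -0.14 over all mutants and both stages. Dlg2 and Macrod2, the members of the 9 with most LMNB1 per kb in EpiLCs, were those with the smallest EpiLC LBRKO change. No relation among the 9 was tested, and over the 234 genes rho with LMNB1 was -0.02 there.

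**Figure D4:**
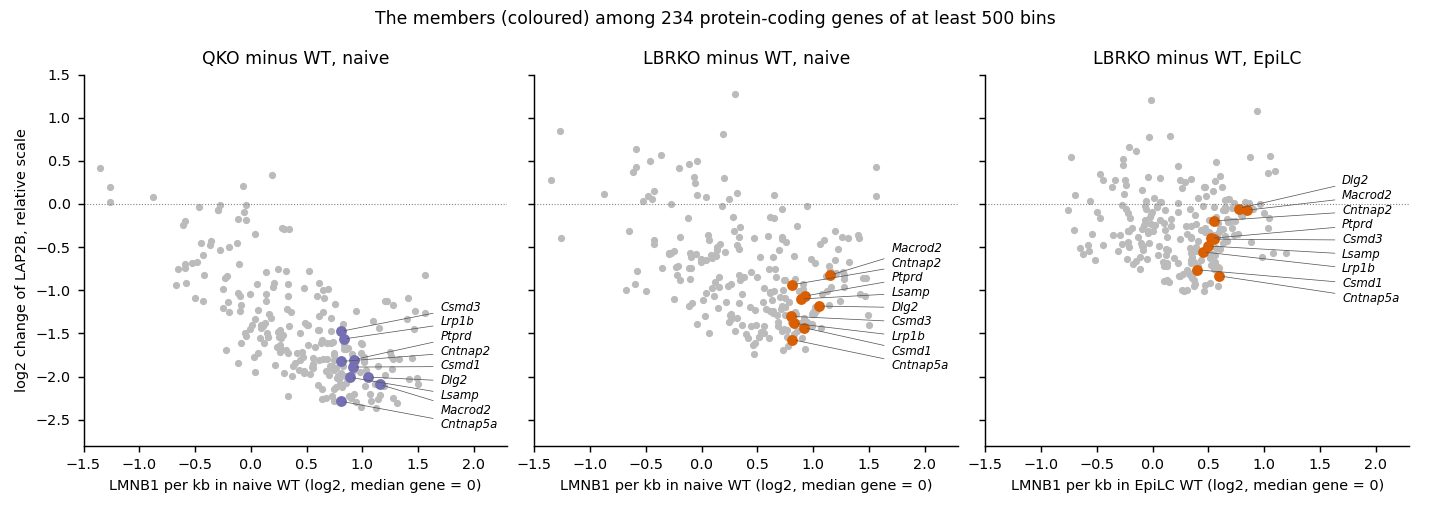
Log2 change of LAP2B against WT (vertical axis) against WT LMNB1 per kb of the same stage (log2, median gene at 0) for 234 protein-coding genes of at least 500 bins, with the 9 genes coloured. The cloud slopes down in naive QKO (rho = -0.65) and is level in EpiLC LBRKO (rho = -0.02), where Dlg2 and Macrod2 lie near 0.

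Family relatives of the 9 changed in both directions. Of 18 paralogs listed, 9 were called higher and 8 lower in naive QKO (against 33.1% and 42.5% of all genes), with a median of 0.48. The relatives that rose were Cntnap1 (2.20), which works at the paranodal junction of axons, Macrod1 (2.16), Ptprs (2.05), Dlg4 (1.88), which encodes PSD-95, Lrp1 (1.83), Ptprf (1.62), Iglon5 (1.40), Dlg3 (1.33) and Dlg1 (0.93). Those that fell were Cntnap5c (-2.22), Cntnap4 (-2.04), Negr1 (-1.99), Cntnap5b (-1.90), Opcml (-1.66), Ntm (-1.25), Lrp2 (-1.03) and Cntnap3 (-0.63), of which Negr1, Opcml and Ntm are IgLON genes like Lsamp. Any reads shared between the Cntnap5 paralogs, whose sequences were not compared, could be split in ways the tables do not show.

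Csmd2, the third of the CUB and Sushi family, did not move with its paralogs. It covers 581 bins, was not called in naive QKO (0.02) and had 0.417 times the LMNB1 per kb of the median gene in naive WT, at percentile 9.80, with a GC content of 48.0%. Csmd1 and Csmd3 had LMNB1 above the median gene and fell. LMNB1 and GC content of the other relatives are not given, and no relation of either to the change was tested among the relatives. In naive LBRKO 8 relatives were called higher and 7 lower, against 28.9% and 27.7% of all genes, and in naive TKO 8 and 8, against 21.8% and 27.6%.

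**Figure D5:**
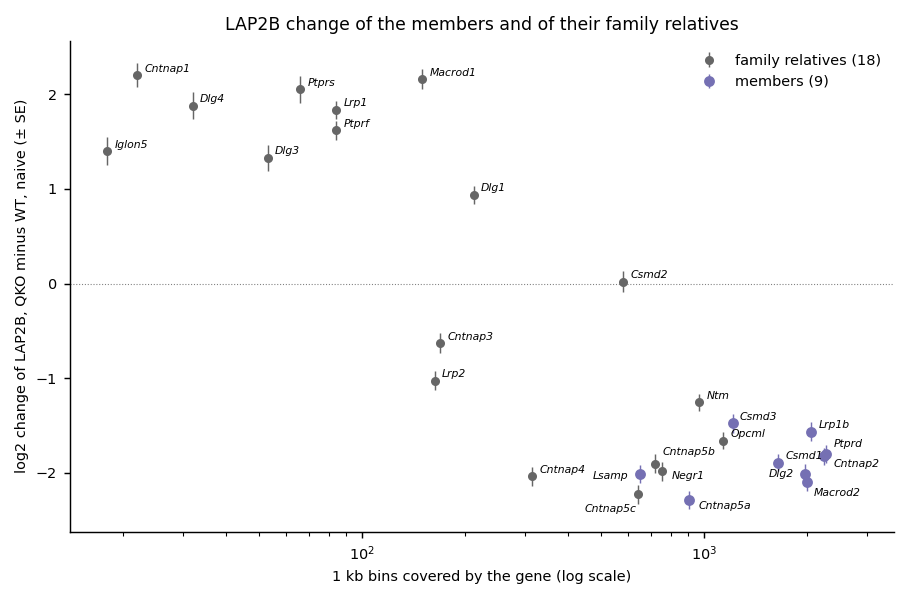
Log2 change of LAP2B in naive QKO against WT (± SE) by the number of 1 kb bins a gene covers (log axis), for 18 family relatives (grey) and the 9 genes (coloured). Relatives lie on both sides of 0, Csmd2, with 581 bins, lies at 0.02, and no relation to length was tested among the relatives.

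A wider list of 52 synaptic adhesion genes was also counted, outside the 9. In naive QKO 37 (71.2%) were called lower and 13 higher, with a median of -1.29, against 42.5% and 33.1% of all genes. In naive LBRKO 29 were lower and 16 higher (27.7% and 28.9% of all genes), and in naive TKO 31 and 12 (27.6% and 21.8%). In EpiLCs 16, 25 and 30 were lower in LBRKO, TKO and QKO, against 10.1%, 9.97% and 17.8% of all genes, and 8, 11 and 12 were higher, against 13.3%, 8.68% and 18.3%.

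Across the 24 LAP2B libraries, the log2 profile of each of the 9 correlated with the mean profile of the others at r = 0.917 (Macrod2) to 0.987 (Ptprd). The genes outside the 9 with the most similar profile to their mean, among 3588 of at least 100 bins, were A330008L17Rik (r = 0.994), Gm10739 (0.993) and A230057D06Rik (0.993), all long non-coding RNA genes. Such likeness is common among long genes in these libraries: 935 of the 3588 had r over 0.9, and the median was 0.665. The libraries' genotypes and levels are shared by every gene in this measure.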

How the data were processed

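CUT&RUN libraries of LAP2B (24), LMNB1 (6) and IGG (6) were used, and 2 H3K9me3 samples were left aside. The authors, per their methods and processing notes, aligned read pairs to GRCm39 with Bowtie2 2.3.5.1, filtered them with SAMtools 1.10, removed duplicates, and computed coverage with deepTools as RPKM times a factor from yeast spike-in reads. How bins were joined to genes is not described. The deposited coverage signal of a gene was read as the sum over the 1 kb bins it touches. The values were equal in all 343 sets of genes within 1 shared bin. That equality shows that values rest on bins, but it cannot tell a sum from a mean. Read as a sum, a deposited value grows with length, and reads in bins common to overlapping genes count for each gene. All deposited values were whole multiples of 1 read's value within 0.05 of it, which a mean over several bins would not in general give. Reads could thus be recovered. Over the 36 replicate pairs, chi-square per degree of freedom was 3.34 to 12.3, and no libraries were merged.

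GENCODE M39 coordinates matched 78131 of 78202 genes. A pseudocount of 0.1 of the median was added before taking log2, and the lowest 0.1 of genes by mean were left out, which left 70381. Changes were tested, two-sided, in R 4.3.3 with limma 3.58.1, using eBayes with trend: the 24 LAP2B libraries shared a model of 8 group means, while LMNB1 and IGG each had a separate model. Tested on simulated data for naive QKO against WT (70381 genes, 50 changed at each size), it recovered 82% at a log2 change of 1, 100% at 2, 58% at -1 and 98% at -2, with 6 false calls. The simulation used 1 fixed dispersion and changed few genes, equally in both directions. In the real comparison 42.5% of genes were called lower and 33.1% higher, so the false calls do not measure error there. Alternatives were other pseudocounts, no filter, other divisors, another reading of the spike-in factor, a replicate block, only the groups compared, edgeR 4.0.16 (quasi-likelihood) on recovered reads, and leaving out each library. The genes named were the 9, their nested and flanking genes, 18 family relatives and the 3 most similar profiles, and the 9 genes and lists were chosen with earlier results of these data known. Upstream sequence came from the GRCm39 genome and annotation, and the window of 1 of the 9 genes is not reported here.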

Additional observations from a re-analysis of the deposited data

Results flagged for a closer look

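The effect of a genotype on LAP2B differed between naive cells and EpiLCs by an interaction test (limma, adjusted over all genes) for the following genes, and the 3 effects share the same 6 WT libraries. For loss of LBR the EpiLC effect minus the naive effect was 0.67 for Csmd1, 0.90 for Csmd3, 0.61 for Lsamp, 0.74 for Cntnap2, 0.74 for Cntnap5a, 1.13 for Dlg2, 0.67 for Ptprd, 0.83 for Lrp1b and 0.75 for Macrod2. For QKO it was 1.34 for Csmd1, 1.01 for Csmd3, 1.11 for Lsamp, 1.00 for Cntnap2, 1.60 for Cntnap5a, 1.32 for Dlg2, 1.10 for Ptprd, 0.87 for Lrp1b and 1.17 for Macrod2. For TKO it was 0.71 for Csmd1 and 0.45 for Lsamp. WT LAP2B over the 9 genes was itself lower in EpiLCs by 0.45 to 0.62 on the log2 scale, and the part of this in the interactions was not tested.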

How the results depend on the processing

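Of the called results for single genes, 1131 of 1169 kept their direction and their side of the threshold over the alternatives other than leaving out a library, 37 lost the call and 1 reversed; over those that leave out 1 library, 859 of 876 kept both and 17 lost the call. Of the uncalled results 351 of 433 and 285 of 312 kept both, 63 and 19 became called, and 19 and 8 changed sign. The cause was not tested for any of these, except that fewer or other libraries enter where groups or libraries are left out. Shared replicate numbers did not pair the libraries (correlation of deviations over 0.1 in at most 1 of 3 pairs); a replicate block gave 0 genes called for LMNB1 between stages, 1 for EpiLC LBRKO on the spike-in scale and 3 for the TKO interaction, where without the block there were 1, 2 and 2, and changed no other count.

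With no filter on low values, the genes called were 4 for EpiLC LBRKO, 7 for EpiLC TKO, 7 for LAP2B between WT stages, 3 for naive LBRKO against TKO, 2 for EpiLC LBRKO against TKO, 5 for the LBRKO interaction, 0 for the TKO interaction, 0 for LMNB1, and on the spike-in scale 5 for naive LBRKO, 0 for EpiLC LBRKO and 1 for EpiLC TKO. Dividing by the mean gene or by genes of at least 100 bins called 8 for naive LBRKO against TKO, and these divisors or the gene's own chromosome called 1 for the TKO interaction and 4 for LMNB1; for IGG they called 4, 4 and 5, and edgeR 5. The median gene per kb, a divisor added after the data were seen, called 1 for the TKO interaction and 4 for IGG. LMNB1 had 0 with a pseudocount of 1 median. Only the groups compared gave 5 for EpiLC QKO against TKO, 8 for EpiLC LBRKO against TKO and 0 for EpiLC TKO on the spike-in scale. The spike-in factor applied to reads gave 0 for EpiLC LBRKO, where the median turned from -0.37 to 0.056, and 0 for EpiLC TKO. With genes of at least 100 bins as the divisor, the median over IGG was 0.66 for naive LAP2B, 0.89 for naive LMNB1 and 0.95 for EpiLC LMNB1.

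Sign changes with the own-chromosome divisor were Dlg2 in EpiLC LBRKO (0.051), Lsamp (0.041) and Dlg2 (0.037) in naive LBRKO against TKO, and Cntnap2 (-0.12) and Lrp1b (-0.017) in EpiLC LBRKO against TKO. With genes of at least 100 bins they were Dlg2 in EpiLC QKO against TKO (0.031), Csmd3 (-0.033), Lsamp (-0.030), Ptprd (-0.0090) and Lrp1b (-0.15) in EpiLC LBRKO against TKO, and Csmd3 (-0.10), Cntnap2 (-0.085), Ptprd (-0.023) and Lrp1b (-0.15) in the TKO interaction. With the mean gene they were Dlg2 in EpiLC QKO against TKO (0.0021), Lrp1b in EpiLC LBRKO against TKO (-0.097), and Csmd3 (-0.029), Cntnap2 (-0.0098) and Lrp1b (-0.079) in the TKO interaction. All of these were uncalled before and after except Cntnap2, which was called at 0.44. With the median gene per kb, Dlg2 in EpiLC QKO against TKO was 0.021, and the share of higher calls among all called genes moved from 60.3% to 36.6% in the TKO and 54.3% to 41.8% in the QKO interaction, 77.6% to 88.5% in EpiLC QKO against TKO and 14.8% to 25.5% for IGG. This share moved with the divisor of at least 100 bins from 51.1% to 63.3%, 44.1% to 76.2% and 43.8% to 63.7% in naive LBRKO, TKO and QKO, 56.9% to 45.7%, 46.5% to 65.6% and 50.6% to 66.7% in EpiLCs, 51.7% to 17.9%, 60.3% to 10.1% and 54.3% to 22.9% in the 3 interactions, 57.6% to 36.6% and 56.2% to 29.9% in naive and EpiLC LBRKO against TKO, 49.2% to 63.7% in naive QKO against TKO, and 46.9% to 81.5%, 47.2% to 78.8% and 14.8% to 44% between WT stages for LAP2B, LMNB1 and IGG.

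Leaving out 1 library gave 4 to 5 genes called for naive LBRKO against TKO, 1 to 5 for the TKO interaction, 0 to 4 for LMNB1, 0 to 4 for IGG, and on the spike-in scale 7 to 9 for naive LBRKO, 0 to 3 for EpiLC LBRKO and 0 to 9 for EpiLC TKO. The values ranged from -0.13 to 0.050 for Dlg2 and -0.14 to 0.031 for Macrod2 in EpiLC LBRKO, -0.083 to 0.051 for Lsamp in naive LBRKO against TKO, -0.047 to 0.0081 for Dlg2 in EpiLC QKO against TKO, and -0.0043 to 0.076 for Lrp1b in EpiLC LBRKO against TKO. Calls over all genes moved as well, so the counts above do not by themselves set the 9 genes apart. For IGG, 8 to 378 genes were called lower when 1 library was left out, against 294 with all libraries. The 9 genes held at least 3429 reads in each library.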
